A study of Mus musculus with 8 samples.

Results

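The collagen genes were taken as every listed gene whose symbol reads Col, a number, a and a number, which gave 38 of the 15960 genes in the count table. They were measured by bulk RNA sequencing of whole lung in 4 BHLKO and 4 Alb-Cre libraries of C57BL/6 mice. BHLKO mice carried Alb-Cre+ with Hif1_alpha fl/fl and Bmal1fl/fl, so that the floxed genes for the oxygen-regulated factor HIF1A and the clock activator BMAL1 are removed where the albumin-driven recombinase acts. Alb-Cre mice carried the recombinase alone, so the driver is common to both groups. Both groups were 3 to 5 months old and were kept for 2 weeks in 12 h light and 12 h dark. The lights then stayed off on the day of the experiment, and all samples are labelled circadian time 16. The comparison asks how lung RNA differs when both factors are missing from the liver, since the albumin promoter is active in hepatocytes and the lung is not the organ it targets. The labels do not say whether each library came from a separate animal, and the p-values therefore speak of differences among these 8 libraries, which may be technical in part. Food was freely available.

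A collagen molecule is a rope of 3 chains, each a run of glycine-led triplets, and each type is built from its own chains. Fibrillar types such as I, III and V form the banded fibrils of the lung interstitium, type IV forms the sheet of the basement membrane between epithelium and capillary, and type VI forms beaded filaments around cells. Smaller classes sit on the surface of fibrils, span the cell membrane or lie at the edge of basement membranes. Fibroblasts make most of the fibrillar and type VI collagen of the lung, while endothelial and epithelial cells also make type IV.

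Lungs of BHLKO mice had more RNA for 2 collagens than lungs of Alb-Cre mice, the transmembrane Col23a1 (1.59-fold) and the type VI chain Col6a3 (1.43-fold). Of the 38 genes, 30 passed the filter on low counts, 2 of them rose, 0 fell and 28 did not pass the test at an adjusted p under 0.05. Over all 13517 tested genes 2.26% were called, 1.04% higher in BHLKO and 1.23% lower, beside 6.67% of the collagen genes. An unadjusted p under 0.05 was reached by 8 of the 30 collagen genes, 6 of them higher and 2 lower in BHLKO, against 16.1% of all tested genes. With DESeq2, 3 collagen genes were called, Col23a1 and Col6a3 higher and Col27a1 lower, while 5.24% of all genes with an adjusted p were called.

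The regions just before the start sites of the 2 genes that rose are shown, to set both beside each other. They are the 250 bases upstream of the RefSeq start (GRCm38.p6, the assembly also called mm10), 5′ to 3′ on the strand of the gene, on chr11:51289670-51289919 (plus strand) for Col23a1 and chr1:90843972-90844221 (minus strand) for Col6a3. No annotated exon lies in either window. Capitals mark a match on either strand to 1 of 4 motifs. They are the E-box bound by BMAL1 with CLOCK (CACGTG), the core of the site bound by HIF factors (ACGTG, which also lies within the E-box), the GC box (GGGCGG) and the CCAAT box.
Col23a1: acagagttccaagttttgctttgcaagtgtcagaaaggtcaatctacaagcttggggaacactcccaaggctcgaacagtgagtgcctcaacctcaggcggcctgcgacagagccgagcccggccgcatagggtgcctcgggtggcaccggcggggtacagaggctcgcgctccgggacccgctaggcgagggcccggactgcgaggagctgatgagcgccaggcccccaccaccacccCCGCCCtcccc
Col6a3: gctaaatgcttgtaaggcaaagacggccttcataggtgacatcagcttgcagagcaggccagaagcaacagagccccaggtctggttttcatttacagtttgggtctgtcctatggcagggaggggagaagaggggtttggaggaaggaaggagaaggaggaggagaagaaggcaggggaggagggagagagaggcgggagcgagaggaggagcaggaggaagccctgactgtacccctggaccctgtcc
The Col23a1 window was 66% G and C and held 1 GC box, and the Col6a3 window was 57.2% G and C and held none of the 4 motifs. Among 32817 such windows of all genes, 6.02% held the E-box, 16.6% the HIF core, 32.7% the GC box and 33.8% the CCAAT box. RefSeq windows were matched for 30 of the 38 collagen genes, giving 32 windows, and 0 of them held the E-box, 4 the HIF core, 19 the GC box and 10 the CCAAT box.

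Total counts ran from 6838427 to 15430372 per library. Levels are given as CPM, a count divided by the scaled library size, with scaling by TMM (trimmed mean of M-values), a factor per library that sets the bulk of genes level. The targeted genes were read in lung at overlapping levels, Arntl (Bmal1) at 5.62 to 11.1 CPM in BHLKO and 5.63 to 8.58 CPM in Alb-Cre, and Hif1a at 12.2 to 14.8 CPM in BHLKO and 10.2 to 14.6 CPM in Alb-Cre. Whole-gene counts in an organ outside the driver do not check the genotype labels. Lung markers (Sftpc, Sftpb, Sftpa1, Scgb1a1 and Ager) summed to 80825 to 87457 CPM in BHLKO and 83478 to 93830 CPM in Alb-Cre. Along the first principal component Alb-Cre replicate 5 lay between the other Alb-Cre libraries and the BHLKO libraries.

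The chains Col4a1, Col4a2, Col6a1 and Col6a2 were the most abundant collagen RNAs of these lungs, with Col1a2 and Col3a1. All collagen genes together made 0.311% of the counts, of which 44.5% came from the type IV chains, 25.7% from fibrillar collagens and 21.5% from type VI. Per kilobase of the longest protein-coding transcript, Col4a2 averaged 85.6 CPM per kb over the 8 libraries, Col4a1 85 CPM per kb and Col6a2 81.6 CPM per kb. Col1a2 followed at 69.2 CPM per kb, then Col6a1 at 50.2 and Col3a1 at 50 CPM per kb. The next gene in the order, Col4a3, stood at 14.7 CPM per kb, and Col1a1 at 9.22 CPM per kb. Col23a1 (9.57 CPM per kb) and Col6a3 (8.31 CPM per kb) lay in the middle range, and Col17a1 (0.296 CPM per kb) was the lowest of the tested genes. A level per kilobase assumes that reads spread over the whole transcript.

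**Figure D1:**
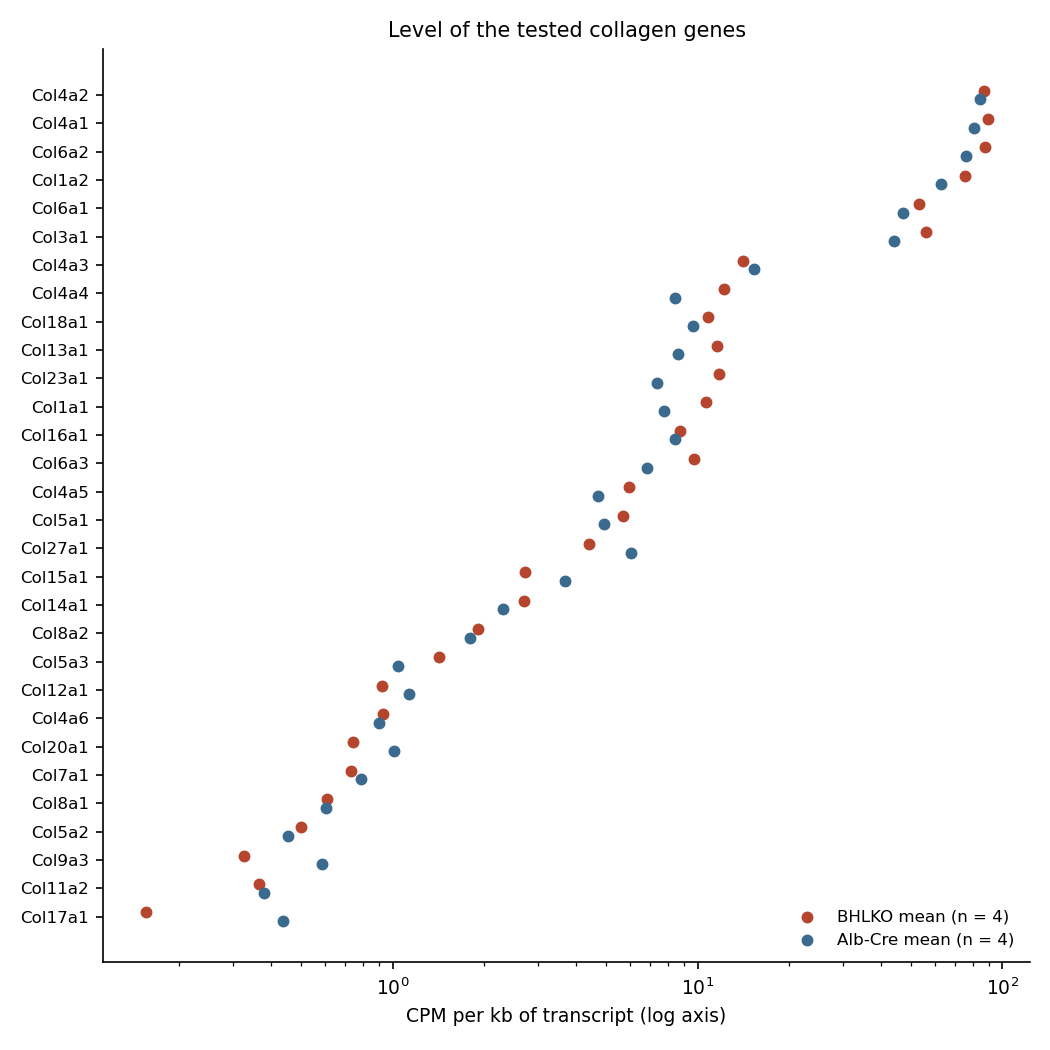
Mean level of the 30 tested collagen genes in CPM per kb of transcript (log axis), BHLKO in red and Alb-Cre in blue, n = 4 libraries each. Col4a1, Col4a2, Col6a2, Col1a2, Col6a1 and Col3a1 lie at 43.9 CPM per kb or higher in both groups, and the next gene, Col4a3, at 14.1 CPM per kb in BHLKO and 15.3 CPM per kb in Alb-Cre.

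Col23a1 (mm10 chromosome 11, 51289920 to 51583918) encodes a membrane-spanning collagen whose outer part can be cut off and released. It stood at 70.9, 65.3, 61.9 and 67.8 CPM in BHLKO replicates 2, 3, 4 and 5, against 36.1, 44.7, 44.4 and 42.2 CPM in Alb-Cre replicates 1, 2, 4 and 5. The lowest BHLKO library lay well above the highest Alb-Cre library. The log2 fold change was 0.67 ± 0.10 (SE; edgeR quasi-likelihood test, adjusted p = 0.00226), and the call held without any single library, at adjusted p of 0.00322 to 0.0133.

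Both other tested transmembrane collagens missed the threshold, and they lay on opposite sides of 0. Col13a1 (chromosome 10), found at cell adhesions and used as a marker of one kind of lung fibroblast, stood at 34.5, 30.3, 42.8 and 39.2 CPM in BHLKO and 24.9, 23.4, 28.8 and 32.4 CPM in Alb-Cre. The groups overlapped through BHLKO replicate 3 and Alb-Cre replicate 5 (log2 0.42 ± 0.14; edgeR adjusted p = 0.145). Col17a1 (chromosome 19), the hemidesmosome collagen of basal epithelial cells, stood at 1.22, 0.172, 1.13 and 0.936 CPM in BHLKO and 2.08, 1.59, 3.86 and 2.25 CPM in Alb-Cre. Every BHLKO library was below every Alb-Cre library, on few reads, 39 counts over the BHLKO libraries and 118 over the Alb-Cre libraries (log2 −1.50 ± 0.52; edgeR adjusted p = 0.159). The basal and esophageal marker list (Krt5, Krt13, Krt4, Krt14, Trp63) summed to 26.9, 3.44, 14.3 and 16 CPM in BHLKO and 17.1, 13.3, 68.1 and 25 CPM in Alb-Cre. Its lowest library, BHLKO replicate 3, and its highest, Alb-Cre replicate 4, were also those of Col17a1, Krt5, Krt13 and Krt4. Krt14 went otherwise, lowest in Alb-Cre replicate 2 (0.578 CPM) and highest in Alb-Cre replicate 1 (3.2 CPM). The part of such cells in the Col17a1 values was not tested.

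Col6a3 (chromosome 1, 90765923 to 90843971) encodes the longest chain of the type VI heterotrimer, whose cleaved end is the signalling fragment endotrophin. It was at 88.8, 101, 101 and 105 CPM in BHLKO, against 74.3, 59.3, 72.3 and 70.6 CPM in Alb-Cre. Every BHLKO library lay above every Alb-Cre library. The log2 fold change was 0.51 ± 0.10 (edgeR adjusted p = 0.0112), and leaving out single libraries gave adjusted p of 0.013 to 0.0406.

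The partner chains of type VI leaned the same way by less and did not pass. Col6a1 (chromosome 10) had 217, 252, 209 and 194 CPM in BHLKO and 204, 205, 178 and 188 CPM in Alb-Cre (log2 0.17 ± 0.10; edgeR adjusted p = 0.423). Col6a2, also on chromosome 10, had 370, 408, 412 and 438 CPM in BHLKO and 370, 353, 326 and 359 CPM in Alb-Cre. The groups of Col6a2 met at their edges, 369.88 CPM in BHLKO replicate 2 and 369.70 CPM in Alb-Cre replicate 1, without overlap (log2 0.21 ± 0.09; edgeR adjusted p = 0.236). The ratio of Col6a3 to Col6a2 counts, a comparison chosen after the values were seen, was 0.24, 0.247, 0.244 and 0.24 in BHLKO and 0.201, 0.168, 0.222 and 0.196 in Alb-Cre. This ratio, which does not depend on how libraries are scaled, was higher in every BHLKO library than in any Alb-Cre library, whereas that of Col6a3 to Col6a1 overlapped (0.399 to 0.542 in BHLKO, 0.289 to 0.405 in Alb-Cre). The paralogs Col6a4 and Col6a5 on chromosome 9 were below the filter.

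**Figure D2:**
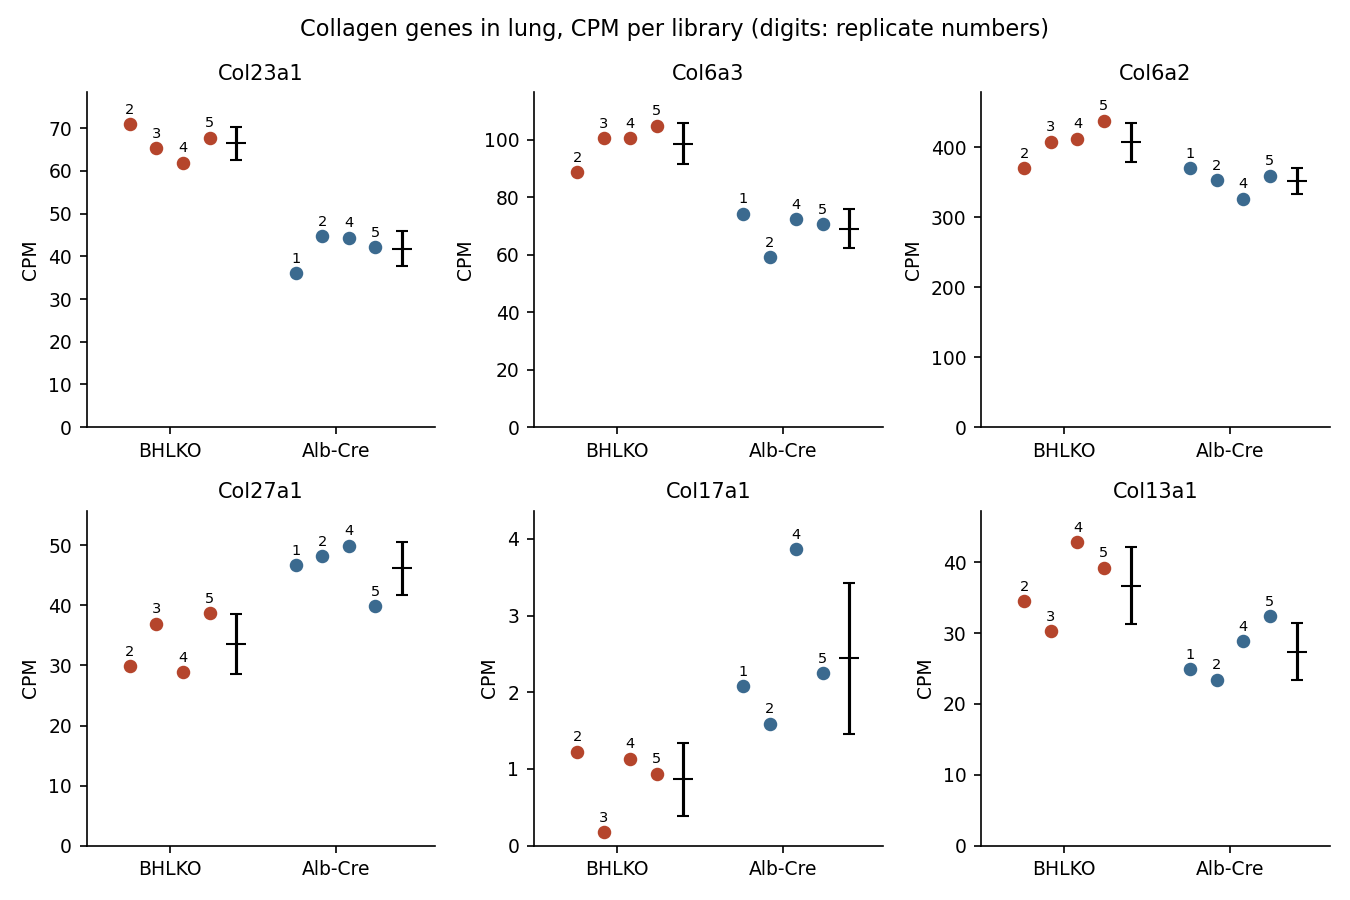
CPM per library (axes start at 0) of 6 collagen genes, BHLKO in red and Alb-Cre in blue; digits are replicate numbers and bars are mean ± SD (n = 4 each). Col23a1 and Col6a3 are separated clearly, at 61.9 to 70.9 against 36.1 to 44.7 CPM and 88.8 to 105 against 59.3 to 74.3 CPM, while Col13a1 overlaps between the groups.

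Of the 30 tested genes, 5 had group values that did not overlap, Col23a1, Col6a3 and Col6a2 higher and Col27a1 and Col17a1 lower in BHLKO, where 9.62% of all tested genes did so (4.63% higher and 4.99% lower in BHLKO). Col27a1 (chromosome 4), a fibrillar collagen with a short helix known from cartilage, was the gene nearest to the threshold among those that missed it. It stood at 29.9, 36.9, 28.8 and 38.7 CPM in BHLKO and 46.7, 48.1, 49.9 and 39.9 CPM in Alb-Cre. Alb-Cre replicate 5 was the lowest of its group, close above BHLKO replicate 5 (log2 −0.46 ± 0.12; edgeR adjusted p = 0.0707). Without Alb-Cre replicate 5 the edgeR adjusted p was 0.0361, and with DESeq2 on all libraries the adjusted p was 0.0263.

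The fibrillar collagens of types I, III and V were higher on average in BHLKO but spread widely, and none of the 8 tested members of the class passed. Col1a1 (chromosome 11) had 47.4, 72.5, 51.1 and 82.3 CPM in BHLKO and 57, 38.2, 55 and 33.9 CPM in Alb-Cre (log2 0.46 ± 0.22; edgeR adjusted p = 0.356). Its partner Col1a2 (chromosome 6) had 329, 445, 420 and 416 CPM in BHLKO and 278, 381, 371 and 320 CPM in Alb-Cre (log2 0.25 ± 0.12; edgeR adjusted p = 0.29). Col3a1 (chromosome 1), the chain of the thin fibrils of soft tissue, had 203, 410, 274 and 358 CPM in BHLKO and 291, 203, 288 and 196 CPM in Alb-Cre (log2 0.35 ± 0.24; edgeR adjusted p = 0.541). In Col1a1 and Col3a1 BHLKO replicates 3 and 5 were the highest of all libraries, and BHLKO replicates 2 and 4 lay within the Alb-Cre range. Of the type V chains, which start and limit fibrils, Col5a1 was at 47.9 ± 3.95 CPM in BHLKO and 41.4 ± 4.93 CPM in Alb-Cre (SD, n = 4 each; edgeR adjusted p = 0.387). Col5a3 was at 8.71 ± 2.31 and Col5a2 at 3.33 ± 1.46 CPM in BHLKO, against 6.4 ± 1.06 and 3.01 ± 1.46 CPM in Alb-Cre (edgeR adjusted p = 0.377 and 0.882). Col11a2, a cartilage fibril chain, was at 2.2 ± 0.938 CPM in BHLKO and 2.29 ± 1.18 CPM in Alb-Cre (edgeR adjusted p = 0.979).

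The major type IV chains were nearly level between the groups. Col4a1 had 628, 574, 610 and 553 CPM in BHLKO and 540, 571, 478 and 545 CPM in Alb-Cre (log2 0.15 ± 0.09; edgeR adjusted p = 0.433). Col4a2 had 575, 513, 607 and 549 CPM in BHLKO and 527, 578, 505 and 561 CPM in Alb-Cre (log2 0.05 ± 0.09; edgeR adjusted p = 0.835). These 2 genes lie head to head on chromosome 8 with annotated starts 21 bases apart, and their counts kept a ratio of 1.01 to 1.12 in BHLKO and 0.946 to 1.02 in Alb-Cre.

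Less even were Col4a3 and Col4a4, chains of the type IV network of alveolar and glomerular basement membranes, which lie head to head on chromosome 1 with starts 72 bases apart. Col4a3 had 122, 151, 95.6 and 115 CPM in BHLKO and 112, 143, 128 and 141 CPM in Alb-Cre (log2 −0.12 ± 0.13; edgeR adjusted p = 0.698). Col4a4 had 101, 98.8, 184 and 112 CPM in BHLKO and 77.2, 132, 63.3 and 68.2 CPM in Alb-Cre (log2 0.55 ± 0.31; edgeR adjusted p = 0.457). BHLKO replicate 4 was the highest library for Col4a4 and the lowest for Col4a3. The ratio of Col4a3 to Col4a4 counts was 1.2, 1.53, 0.52 and 1.03 in BHLKO and 1.45, 1.09, 2.02 and 2.07 in Alb-Cre, with overlap. Strand handling is not given in the sources used here, and 5.65% of the exon bases of Col4a3 lie under exons of an antisense gene, C430014B12Rik, whose reads cannot be told apart from it without strand. Their partner Col4a5 on the X chromosome was at 38.9 ± 7.74 CPM in BHLKO and 30.7 ± 5.98 CPM in Alb-Cre (edgeR adjusted p = 0.279), and Col4a6 beside it at 6.17 ± 1.27 CPM in BHLKO and 5.99 ± 0.77 CPM in Alb-Cre (edgeR adjusted p = 0.961).

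**Figure D3:**
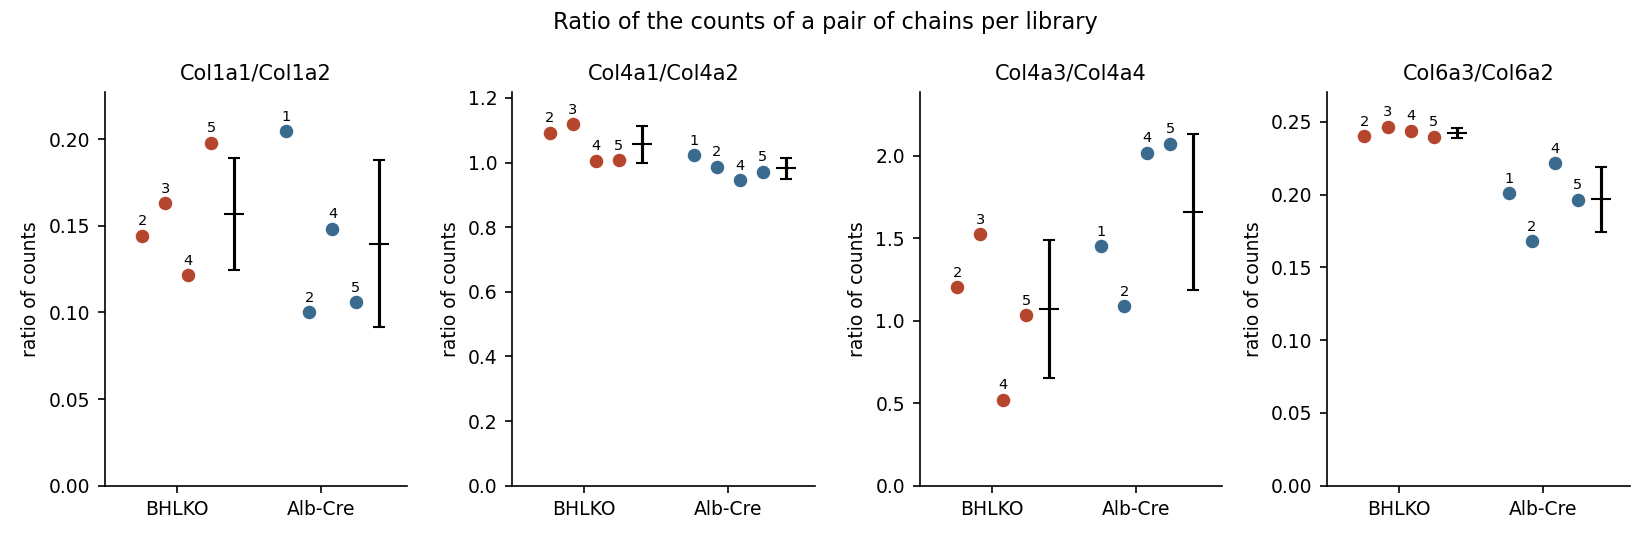
Ratio of the counts of 2 chains in each library (axes start at 0), BHLKO in red and Alb-Cre in blue; digits are replicate numbers and bars are mean ± SD (n = 4 each). Col4a1 to Col4a2 stays between 0.946 and 1.12 in all libraries, Col4a3 to Col4a4 ranges from 0.52 to 2.07, and Col6a3 to Col6a2 is higher in every BHLKO library.

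The RNA ratio of the other fixed chain pairs varied from library to library. Type I collagen is known to hold more α1 than α2 chains, and the count ratio of Col1a1 to Col1a2 was 0.144, 0.163, 0.122 and 0.198 in BHLKO and 0.205, 0.1, 0.148 and 0.106 in Alb-Cre. Per kilobase of transcript that ratio ran from 0.11 to 0.179 in BHLKO and from 0.0904 to 0.185 in Alb-Cre. Col5a1 exceeded Col5a2 in counts by a ratio of 8.15 to 30.9 in BHLKO and of 10 to 31.5 in Alb-Cre. Col6a1 to Col6a2 was at 0.442 to 0.618 in BHLKO and 0.523 to 0.581 in Alb-Cre, and Col8a1 to Col8a2 at 0.267 to 0.5 in BHLKO and 0.262 to 0.5 in Alb-Cre. All these ranges overlapped. The fixed pairs Col9a1/Col9a2 and Col11a1/Col11a2 gave no ratio, as Col9a1 and Col11a1 were not in the count table.

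The smaller classes held no called gene apart from Col23a1. Among collagens that sit on fibrils, Col16a1 was the most abundant in counts, at 45.7 ± 4.59 CPM in BHLKO and 43.8 ± 4.59 CPM in Alb-Cre (edgeR adjusted p = 0.844). Col14a1, a marker of adventitial fibroblasts, was at 17.5 ± 4.02 CPM in BHLKO and 14.9 ± 4.36 CPM in Alb-Cre (edgeR adjusted p = 0.668). Col12a1 was at 10.6 ± 1.6 CPM in BHLKO and 13 ± 1.06 CPM in Alb-Cre (edgeR adjusted p = 0.445). Col20a1 and Col9a3 were rarer still, at 3.72 ± 1.13 and 0.995 ± 0.956 CPM in BHLKO and 5.08 ± 1.57 and 1.79 ± 0.459 CPM in Alb-Cre (edgeR adjusted p = 0.552 and 0.567). Without strand, reads of the antisense gene Tcfl5 cannot be told apart over 6.07% of the exon bases of Col9a3. Of the multiplexins, which carry anti-angiogenic end fragments such as endostatin, Col18a1 was at 60.7 ± 2.44 CPM in BHLKO and 54.2 ± 7.09 CPM in Alb-Cre (edgeR adjusted p = 0.497).

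Col15a1, the other multiplexin, was at 10.8, 15.9, 15 and 14.5 CPM in BHLKO and 21.2, 15.8, 27 and 12.2 CPM in Alb-Cre (log2 −0.44 ± 0.22; edgeR adjusted p = 0.349). Alb-Cre replicates 1 and 4, highest for Col15a1, were also highest for adipocyte markers (Adipoq, Plin1, Cidec, Lep, Cfd), which summed to 265, 464, 522 and 1010 CPM in BHLKO and 2066, 184, 1504 and 270 CPM in Alb-Cre. None of the 5 adipocyte genes passed the test, and their part in the Col15a1 values was not tested. The anchoring fibril gene Col7a1 was at 6.78 ± 1.24 CPM in BHLKO and 7.28 ± 1.85 CPM in Alb-Cre (edgeR adjusted p = 0.897). For the short-chain genes Col8a2 and Col8a1, known from vessel walls, the means were 8.28 ± 1.96 and 3.11 ± 0.277 CPM in BHLKO and 7.78 ± 1.89 and 3.08 ± 1.01 CPM in Alb-Cre (edgeR adjusted p = 0.909 and 1).

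**Figure D4:**
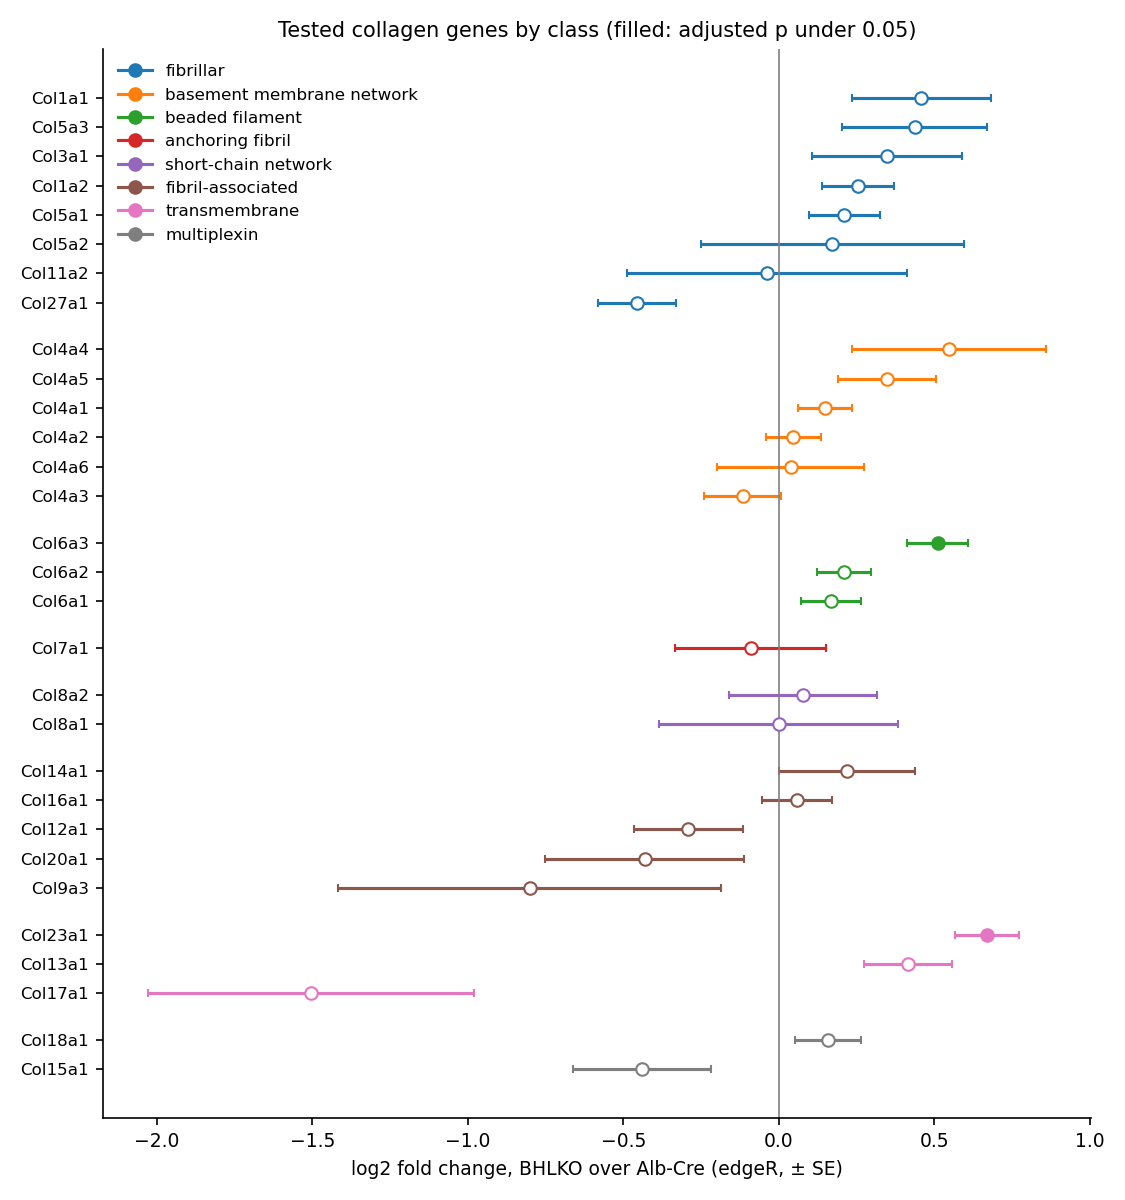
The log2 fold change of BHLKO over Alb-Cre (edgeR, ± SE) for the 30 tested collagen genes by class; filled points have an adjusted p under 0.05. Only Col23a1 (0.67) and Col6a3 (0.51) are filled, 21 points lie right of 0 and 9 left of it.

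Across the 30 tested genes the median log2 fold change was 0.15, with 21 genes above 0 and 9 below (Col8a1, at 0.00, fell below 0 under other scalings), beside a median of −0.0017 and 49.7% above 0 for all tested genes. Among all tested genes the fifth with the longest transcripts had a median of 0.02 and the fifth with the shortest −0.02. Spread between libraries, as the edgeR biological coefficient of variation, was lowest for Col6a3 and Col23a1 (0.115 each) and highest for Col9a3 (0.507). A change of the same size is harder to call where this spread is wide. It was not wide in rare genes alone, at 0.303 for Col4a4, 0.241 for Col3a1 and 0.221 for Col1a1. The summed level of all collagen genes was 3094, 3442, 3372 and 3361 CPM in BHLKO and 2902, 3029, 2881 and 2853 CPM in Alb-Cre, without overlap. By class, type VI summed to 677, 766, 722 and 739 CPM in BHLKO and 650, 617, 580 and 619 CPM in Alb-Cre. The transmembrane class summed to 107, 95.8, 106 and 108 CPM in BHLKO and 63.1, 69.7, 77.1 and 76.8 CPM in Alb-Cre. Both classes were separated, while the fibrillar class (670 to 1022 CPM in BHLKO, 636 to 827 CPM in Alb-Cre) and the type IV class (1374 to 1536 CPM in BHLKO, 1207 to 1469 CPM in Alb-Cre) overlapped. The transmembrane sum averaged 104 CPM in BHLKO and 71.7 CPM in Alb-Cre, of which the called gene Col23a1 made 66.5 and 41.8 CPM. Its separation is thus not independent of the Col23a1 call, and the type VI sum likewise holds the called Col6a3.

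**Figure D5:**
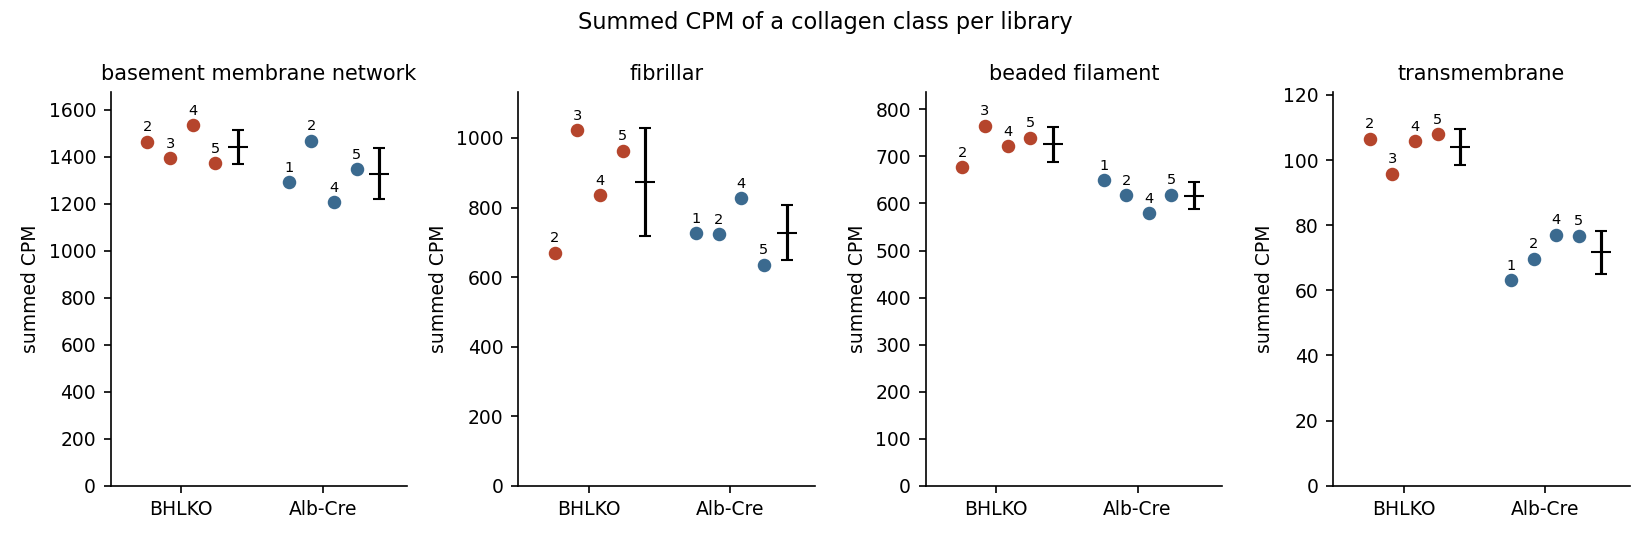
Summed CPM of 4 collagen classes in each library (axes start at 0), BHLKO in red and Alb-Cre in blue; digits are replicate numbers and bars are mean ± SD (n = 4 each). The type VI (beaded filament) and transmembrane sums are higher in every BHLKO library, and the type IV (basement membrane) and fibrillar sums overlap. The called gene Col23a1 makes most of the transmembrane sum.

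The 8 collagen genes below the filter gave few reads. Col2a1, the main cartilage collagen, had 0 counts in all BHLKO libraries and 18 and 3 counts in Alb-Cre replicates 4 and 5. Col10a1, of hypertrophic cartilage, had 0 counts in BHLKO and 2 and 9 counts in Alb-Cre replicates 1 and 4. A count of 0 over the BHLKO libraries allows a level of up to 0.0661 CPM (3 counts, counting error only). The cartilage gene Acan was highest in the same library, at 0, 0, 0.206 and 0 CPM in BHLKO and 0, 0, 1.37 and 0.132 CPM in Alb-Cre. Of 10 cartilage markers 7 were listed and 2, Chad and Cytl1, passed the filter. Chad was at 37.7, 68.8, 46 and 66.7 CPM in BHLKO and 35.2, 28.9, 74.1 and 42.3 CPM in Alb-Cre, and Cytl1 at 46.5 ± 5.39 CPM in BHLKO and 41 ± 12.2 CPM in Alb-Cre (edgeR adjusted p = 0.751 and 0.685). The 7 listed markers summed to 77, 120, 96.5 and 113 CPM in BHLKO and 63.6, 66.3, 137 and 88.3 CPM in Alb-Cre. Alb-Cre replicate 4 was the highest library of that sum, and the part of cartilage in the collagen counts was not tested. Col6a5, a type VI chain, had 95 counts over the BHLKO libraries, 54 of them in replicate 3, and 44 over the Alb-Cre libraries. Col26a1 had 24 and 27, Col24a1 8 and 14, Col6a4 12 and 22, Col28a1 6 and 12 and Col9a2 4 and 6 counts over the BHLKO and over the Alb-Cre libraries. Of 45 collagen genes assigned to a class, 7 were not in the count table (Col11a1, Col6a6, Col9a1, Col19a1, Col21a1, Col22a1 and Col25a1).

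Genes that make, bind and remove collagen were taken as 8 lists. Among them P4ha1, Fkbp14, Pcolce, Lox, Dpt, Mrc2, Mmp2 and Skil had more RNA in BHLKO lungs. Over the lists with 69 tested genes, 8 rose, 0 fell and 61 did not pass (11.6% called, median log2 fold change 0.16), beside 2.26% called and 1.04% called higher over all tested genes. The lists were chosen with earlier results known, so nothing particular to them is read from these shares. List medians of the log2 fold change were 0.37 for cross-linking, 0.27 for propeptide cleavage, 0.21 for fibril-binding proteins, 0.18 for the TGF-beta and CTGF list and 0.16 for hydroxylation. They were 0.07 for the 8 tested breakdown genes, 0.06 for the 10 tested receptors and 0.04 for folding and export. Of 15 hydroxylation genes, P4ha1, a catalytic subunit of the prolyl hydroxylase that lets the helix fold, rose 2.44-fold. It had 32.2, 31.6, 35 and 40.5 CPM in BHLKO and 10.3, 12.1, 11 and 23.2 CPM in Alb-Cre (log2 1.28 ± 0.23; edgeR adjusted p = 0.0125, and 0.054 without Alb-Cre replicate 2). Alb-Cre replicate 5 stood above the rest of its group but below every BHLKO library. P4ha2, Plod1 and P3h2 had log2 fold changes of 0.39 ± 0.10, 0.36 ± 0.12 and −0.35 ± 0.18 (edgeR adjusted p = 0.053, 0.156 and 0.369). Among 8 folding and export genes, Fkbp14, a peptidyl-prolyl isomerase of the endoplasmic reticulum that acts on procollagen, rose 2.11-fold. It had 18.3, 14.2, 18.8 and 18.5 CPM in BHLKO and 7.88, 6.65, 7.04 and 11.1 CPM in Alb-Cre (edgeR adjusted p = 0.00768). The collagen chaperone gene Serpinh1 was at 606 ± 126 CPM in BHLKO and 488 ± 67.4 CPM in Alb-Cre (edgeR adjusted p = 0.29).

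Outside the cell, Pcolce, which speeds removal of the C-terminal propeptide, rose 1.39-fold among 5 propeptide genes (373 ± 33.7 CPM in BHLKO, 269 ± 45.9 CPM in Alb-Cre; edgeR adjusted p = 0.0414). The cross-linking enzyme gene Lox rose 1.8-fold among 5 (34.7 ± 7.41 CPM in BHLKO, 19.1 ± 4.83 CPM in Alb-Cre; edgeR adjusted p = 0.0354). The Pcolce call was lost without BHLKO replicate 3, 4 or 5 or Alb-Cre replicate 2 or 4 (edgeR adjusted p up to 0.131), and the Lox call without BHLKO replicate 2, 4 or 5 or Alb-Cre replicate 1, 2 or 4 (edgeR adjusted p up to 0.126). Both genes overlapped between the groups. For the protease gene Bmp1 the log2 fold change was −0.09 ± 0.11 (edgeR adjusted p = 0.731). Of 9 proteins that bind fibrils, Dpt, which promotes fibril assembly, rose 1.51-fold, with 226, 223, 245 and 228 CPM in BHLKO and 151, 142, 164 and 154 CPM in Alb-Cre (edgeR adjusted p = 0.00133). Fn1 was at 374 ± 26.8 CPM in BHLKO and 278 ± 45.8 CPM in Alb-Cre (edgeR adjusted p = 0.0562), and Fmod at 22.1 ± 5.52 CPM in BHLKO and 35.4 ± 11.5 CPM in Alb-Cre (edgeR adjusted p = 0.189).

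Mrc2 and Mmp2 were the called members of the receptor and breakdown lists, 1 of 10 tested receptors and 2 of 8 tested breakdown genes. Over all tested genes 2.26% were called, 1.04% higher in BHLKO. Mrc2, an endocytic receptor that takes collagen fragments into cells, is held by both the receptor and the breakdown list and rose 1.41-fold, with 89.7, 91.5, 94.2 and 106 CPM in BHLKO and 74.3, 61.4, 65.5 and 68.9 CPM in Alb-Cre (edgeR adjusted p = 0.0113). Mmp2, a gelatinase that also cuts type IV collagen, rose 1.52-fold, with 150, 142, 132 and 146 CPM in BHLKO and 99.1, 77.6, 104 and 94.9 CPM in Alb-Cre (edgeR adjusted p = 0.00437). No BHLKO library of either gene overlapped an Alb-Cre library. Of 10 genes of the TGF-beta and CTGF list, Skil, a feedback repressor of SMAD signalling, rose 1.68-fold (25.6 ± 1.72 CPM in BHLKO, 15.2 ± 1.9 CPM in Alb-Cre; edgeR adjusted p = 0.00999). Ccn2 was at 191 ± 31.4 CPM in BHLKO and 123 ± 45 CPM in Alb-Cre (edgeR adjusted p = 0.313), and Tgfb2 at 27.1 ± 4.2 CPM in BHLKO and 34.3 ± 1.72 CPM in Alb-Cre (edgeR adjusted p = 0.2).

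Summed fibroblast markers did not overlap between the groups, though single markers differed in direction. The alveolar sum holds the called Itga8 and Npnt and the adventitial sum the called Dpt. Their separation is thus not independent of those calls. Alveolar fibroblast markers (Tcf21, Itga8, Npnt, Limch1, Fgfr4, Ces1d) summed to 2537 to 2783 CPM in BHLKO and 2105 to 2369 CPM in Alb-Cre, and 2 of 6 rose. Over all tested genes 2.26% were called, 1.04% higher in BHLKO. The marker lists were chosen with earlier results known, so nothing particular to them is read from their called shares. Itga8 rose 1.38-fold (202 ± 5.14 CPM in BHLKO, 146 ± 13.9 CPM in Alb-Cre; edgeR adjusted p = 0.0116), and Npnt 1.39-fold (828 ± 77.1 CPM in BHLKO, 597 ± 88.1 CPM in Alb-Cre; edgeR adjusted p = 0.0322). The Npnt call was lost without BHLKO replicate 2, 3 or 4 or Alb-Cre replicate 1, 4 or 5 (edgeR adjusted p up to 0.103). Tcf21 was at 298 CPM in BHLKO and 313 CPM in Alb-Cre and Fgfr4 at 31 CPM in BHLKO and 30.8 CPM in Alb-Cre (edgeR adjusted p = 0.855 and 0.988), and the most abundant member, Ces1d, at 1109 CPM in BHLKO and 1010 CPM in Alb-Cre (edgeR adjusted p = 0.44). Adventitial fibroblast markers (Pi16, Dpt, Serpinf1, Clec3b, Ly6a, Dcn) summed to 1742 to 2053 CPM in BHLKO and 1461 to 1727 CPM in Alb-Cre, and Dpt alone of the 6 rose. The lowest BHLKO and the highest Alb-Cre sum lay close together, Ly6a made most of the sum (1289 CPM in BHLKO, 1114 CPM in Alb-Cre; edgeR adjusted p = 0.388), and Dcn was at 154 CPM in BHLKO and 181 CPM in Alb-Cre (edgeR adjusted p = 0.619). Of 5 alveolar type 1 markers Pdpn rose 1.39-fold and Rtkn2 6.15-fold, while the sum was 7311 to 7676 CPM in BHLKO and 6321 to 7458 CPM in Alb-Cre. The other members, Ager, Hopx and Clic5, were not called (edgeR adjusted p = 0.54, 0.913 and 0.992). The Pdpn call was lost without BHLKO replicate 2, 4 or 5 or Alb-Cre replicate 1 or 2 (edgeR adjusted p up to 0.096). Endothelial markers (Pecam1, Cdh5, Cldn5, Kdr, Tie1) summed to 2758 to 3505 CPM in BHLKO and 2667 to 3157 CPM in Alb-Cre. Smooth muscle markers (Acta2, Myh11, Cnn1, Tagln, Des) summed to 1234 to 1578 CPM in BHLKO and 993 to 1426 CPM in Alb-Cre, and mesothelial markers (Msln, Upk3b, Wt1, Lrrn4, Upk1b) to 200 to 283 CPM in BHLKO and 187 to 250 CPM in Alb-Cre. None of the genes of these 3 lists passed. Skeletal muscle markers (Ckm, Acta1, Mylpf, Tnnt3, Myh4) summed to 72.3 to 307 CPM in BHLKO and 53.5 to 123 CPM in Alb-Cre, and 0 passed. In whole lung, more cells of a type and more RNA per cell cannot be told apart, and the part of the fibroblast and epithelial markers in the collagen values was not tested.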

How the data were processed

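Whole-lung RNA of 4 BHLKO and 4 Alb-Cre libraries was counted per gene by the authors. The deposited table lists 15960 gene symbols with raw read counts per library, per the file headers, and a second set of columns, a normalized signal. In each library the deposited signal was the count over a fixed number, which equalled the recomputed DESeq2 size factor, and it was not used further. The submitters' processing notes name cutadapt, STAR 2.5.2b, HTSeq, DESeq2 and mm10, with no role stated; the gene annotation counted is not given in the sources used here. Every listed gene had at least 6 counts in some library.

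Counts were tested with edgeR 4.0.16 (R 4.3.3): TMM scaling, filterByExpr by group, robust quasi-likelihood F test, Benjamini-Hochberg adjustment over all 13517 genes kept, which hold 99.9% of counts. CPM divides by the TMM-scaled library size of the tested genes. Positions and transcript lengths are from GENCODE M21 (mm10), matched for 38 of 38 collagen genes, and upstream sequences from RefSeq (GRCm38.p6). Depth limits precision, and a count of 0 was given as a limit of 3 counts over a group. Reads carry no molecular identifiers, so intervals and floors cover counting error only.

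The members, classes, pathway lists and markers were chosen with earlier results of these data known. Collagen genes with per-library or named values were those called, those without overlap between groups, the most abundant of each class and the chains of fixed pairs; further members are given so that each class is accounted for. From each other list, up to 4 genes of smallest p were eligible for naming. Values of Tcf21, Fgfr4, Dcn, Clic5 and the untested Acan were given besides. Alternatives were other scalings (DESeq2 size factors, upper quartile), no filter, no robust shrinkage, DESeq2 1.42.0, limma-voom (limma 3.58.1), 1 surrogate variable from sva 3.50.0, a block on replicate number, a threshold of 0.1 and leaving out each library. Replicate numbers are those of the sample descriptions.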

Additional observations from a re-analysis of the deposited data

Results flagged for a closer look

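Col4a4 in BHLKO replicate 4 (184 CPM) stood apart from the other 3 BHLKO libraries (98.8 to 112 CPM), its gap to the nearest of them taking 0.847 of the group's range, above the Dixon critical value for 4 samples. It was the single value to do so among 68 group values examined (named collagen genes, class sums and fixed chain ratios), where chance gives about 1 in 20. Without that library the log2 fold change of Col4a4 was 0.29, against 0.55 with all libraries, and it was not called in either fit (edgeR adjusted p = 0.64 and 0.457).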

How the results depend on the processing

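Col23a1 and Col6a3 stayed called, and higher in BHLKO, in all 16 alternative fits (log2 0.60 to 0.70 and 0.45 to 0.56; highest adjusted p 0.042 for both). The count of collagen genes that fell was 0 in the edgeR fit and 1, Col27a1, with DESeq2 and at a threshold of 0.1, and ran from 0 to 1 on leaving out a library (1 without Alb-Cre replicate 5). Genes called in all numbered 306, but 708 with DESeq2, 160 with the replicate block, 579 at a threshold of 0.1 and 131 to 520 on leaving out a library, fewest without replicate 1 and most without replicate 5 of Alb-Cre. Pathway genes called ran from 5 (without Alb-Cre replicate 2) to 12 on leaving out a library. The median log2 fold change of collagen genes ran from 0.085 (without Alb-Cre replicate 2) to 0.16. On leaving out a library the log2 ratio of summed CPM ran from −0.043 to 0.12 for multiplexins, −0.046 to 0.045 for fibril-associated and −0.12 to 0.14 for short-chain collagens, and that of the chain ratios from −0.39 to 0.52 for Col5a1/Col5a2, −0.11 to 0.049 for Col6a1/Col6a2 and −0.19 to 0.12 for Col8a1/Col8a2. Of the 19 collagen genes followed through the alternative fits, 4 turned sign, none of them called. Signs of the other tested collagen genes were not examined there. Col5a2 was at −0.36 with the replicate block and ran from −0.12 to 0.46 on leaving out a library. Col7a1 was at 0.014 with the block and ran from −0.24 to 0.045. Col8a1 was at −0.0029 with DESeq2 size factors, −0.015 with upper-quartile scaling and −0.0063 with the DESeq2 test, and ran from −0.13 to 0.15. Col8a2 ran from −0.088 to 0.18. The cause was not tested. Leaving out libraries for class sums and chain ratios was added after the data were seen.

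By the sample descriptions the numbers 2, 4 and 5 occur in both groups. Sample titles number the libraries otherwise, which would pair some of them differently. Deviations of libraries with the same number were correlated at r of 0.04, −0.01 and 0.02 across genes. Pairs with different numbers ran from −0.13 to 0.09. The labels do not say what the numbers stand for, and a batch shared by number was not tested. With the replicate block 2 collagen genes rose and 0 fell. Among the other genes reported as risen the calls of Mmp2, Skil, Itga8, Npnt and Pdpn were lost (edgeR adjusted p = 0.0503, 0.069, 0.098, 0.0907 and 0.129). Alb-Cre replicate 1 and BHLKO replicate 3 have no same-numbered partner and add nothing to the group difference in that fit. The block thus rests on fewer libraries. Depth limits the 8 genes below the filter.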
